A study of Mus musculus with 6 samples.

Results

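The intermediate filament genes described here are Vim (vimentin), Nes (nestin), the simple epithelial keratins Krt7, Krt8, Krt18, Krt19 and Krt20, and the lamin genes Lmna, Lmnb1 and Lmnb2. They were chosen by name, with earlier results of these data known. Every probe set that the platform annotation pairs with exactly 1 of them was taken, which gave 22 probe sets for 10 genes out of 34945 such probe sets for 18193 genes. All 10 genes were represented: Lmna by 5 probe sets, Vim, Nes and Krt8 by 3 each, Lmnb1 and Lmnb2 by 2 each, and Krt7, Krt18, Krt19 and Krt20 by 1 each.

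The cells were 393P, a mass population (not a clone) grown from a primary lung tumour of mice with the genotype p53R172HΔg/+ K-rasLA1/+, which both groups therefore share. The control group (3 arrays) carried a control vector, called scrambled in the series design, and the other group (3 arrays) a vector for a short hairpin RNA (shRNA) against MKK4, the kinase encoded by Map2k4 that phosphorylates JNK and p38. The labels describe both retroviral infection and lipid transfection as the route of delivery, and give neither the time between delivery and harvest nor a second shRNA. The question addressed is how transcripts of the filament genes differ when MKK4 is depleted.

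Intermediate filaments are built from coiled-coil proteins whose composition marks cell type. Simple epithelia pair a type II keratin (Krt7 or Krt8) with a type I keratin (Krt18, Krt19 or Krt20), mesenchymal cells and many carcinoma cells in culture assemble vimentin, and nestin, a large filament protein of progenitor cells, enters filaments together with a partner such as vimentin. The lamins form the mesh under the inner nuclear membrane, with A-type lamins from Lmna and B-type lamins from Lmnb1 and Lmnb2.

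Promoter sequences are shown first for 3 members whose readings differed in kind. Vim was higher on every probe set, Nes gave probe sets that disagreed, and Krt18 was bright in both groups. Whether these readings depend on the promoter sequences was not tested. Each is the stretch of 250 bases before the annotated gene start on the plus strand, from RefSeq on GRCm38.p6, with matches to the 2 motifs found in them in capitals (the TATA box letters TATAAA and the Sp1 letters GGGCGG, searched on both strands).
Vim, chr2:13574061-13574310: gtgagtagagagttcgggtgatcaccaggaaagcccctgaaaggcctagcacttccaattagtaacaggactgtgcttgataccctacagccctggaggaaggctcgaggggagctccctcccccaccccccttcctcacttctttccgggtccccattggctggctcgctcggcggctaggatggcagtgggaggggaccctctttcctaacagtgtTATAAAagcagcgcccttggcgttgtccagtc
Nes, chr3:87970843-87971092: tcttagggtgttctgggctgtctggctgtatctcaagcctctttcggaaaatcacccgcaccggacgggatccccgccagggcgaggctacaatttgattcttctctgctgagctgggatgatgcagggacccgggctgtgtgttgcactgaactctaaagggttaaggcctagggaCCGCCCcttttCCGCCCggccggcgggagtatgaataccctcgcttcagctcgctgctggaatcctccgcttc
Krt18, chr15:102027966-102028215: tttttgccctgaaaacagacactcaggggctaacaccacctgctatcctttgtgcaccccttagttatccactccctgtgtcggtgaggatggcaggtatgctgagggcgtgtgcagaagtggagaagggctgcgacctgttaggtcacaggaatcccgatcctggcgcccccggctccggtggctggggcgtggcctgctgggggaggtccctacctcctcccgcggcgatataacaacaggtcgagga

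The Vim window held 1 TATAAA, beginning 32 bases before the gene start, and the Nes window 2 copies of the Sp1 letters, beginning 73 and 62 bases before it. In the Krt18 window neither motif was found. The AP-1 letters TGANTCA, the site of the Jun and Fos proteins that lie downstream of MKK4 and JNK, were in none of the 10 windows searched for 8 of the member genes, against 6.75% of 32851 promoter windows of that length. Krt19 and Lmnb1 had no window searched. Member windows on 1 chromosome were left out of the search, while windows on that chromosome were kept among all windows. For comparison, the Sp1 letters were in 4 of the 10 and in 32.7% of all windows, and TATAAA in 2 of the 10, those of Vim and Krt20, and in 12.4% of all. These matches describe the letters in this window and say nothing of binding.

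Median intensity was 92 to 95.76 units over the 6 arrays, and any pair of arrays correlated at r = 0.9897 to 0.9949 across probe sets. Map2k4, the target of the shRNA, went on its brighter probe set from 700, 638 and 597 units in the control arrays to 240, 295 and 287 with the shRNA, so the groups did not overlap and matched their labels. The highest value of the trpnX probe sets, which read a bacterial transcript, was 39.47 units on any array and serves as the background level below. Epithelial markers were bright, from 1705 to 7236 units in group means for the 6 measured (Epcam, Cdh1, Cldn4, Cldn7, Esrp1 and Rab25), and the keratins below add to that picture. Levels of different probe sets cannot be set against each other, since each set of probes binds with its own efficiency. Comparisons are therefore between groups, of the same probe set, of a difference between probe sets or of a sum over them. Each group was 3 cultures of a single cell population, so the p-values cover culture-to-culture spread alone, and in such bulk RNA fewer expressing cells and less RNA per cell cannot be told apart.

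**Figure D1:**
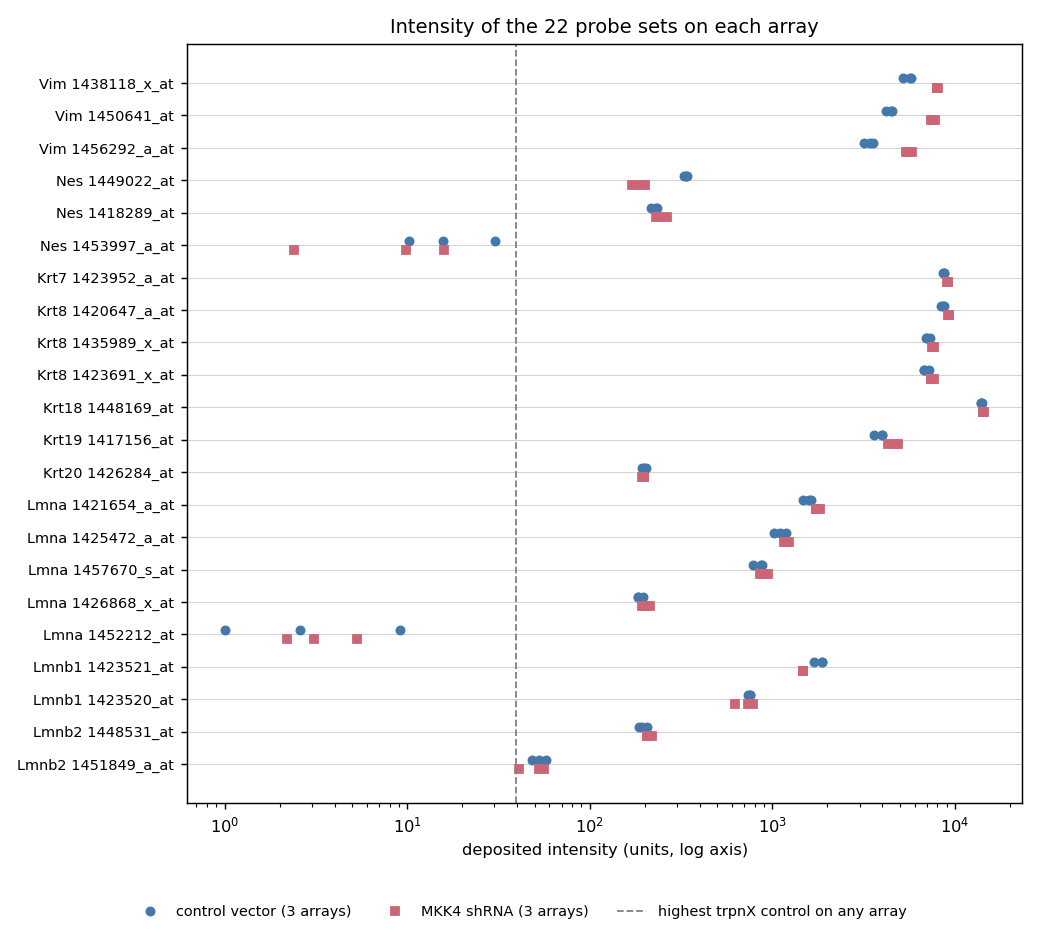
Deposited intensity (log axis) of each of the 22 probe sets on the 3 control arrays (circles) and the 3 MKK4 shRNA arrays (squares), with a dashed line at the highest trpnX background value, 39.47 units. The Vim squares lie to the right of the circles on all 3 probe sets, and 1 Nes and 1 Lmna probe set lie left of the line on every array.

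Of the 22 probe sets, 6 passed the test (limma, Benjamini-Hochberg adjusted p under 0.05 over 45037 probe sets), 4 higher and 2 lower with the shRNA. Over all probe sets tested 6.37% passed, 3.57% higher and 2.79% lower. The share was higher among bright probe sets: of the 4504 brightest 22.8% passed, and 11 of the 22 members are among these, of which 5 passed. The normalized values of the groups did not overlap in 12 of the 22, against 23.1% of all probe sets, and the members' median log2 change was 0.08 against -0.01 over all. Since the members were chosen with earlier results of these data known, these shares describe them and are not a test of the group. As deposited, without normalization between arrays, the calls over all probe sets were 1229 higher and 613 lower, against 1610 and 1258, and 3 members were higher and 2 lower.

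Vimentin transcript was higher in the MKK4 shRNA cultures on each of its 3 probe sets. Vim is the type III filament gene whose protein replaces or joins keratin in motile cells. The brightest probe set, 1438118_x_at, read 5669, 5216 and 5708 units in the control arrays and 8011, 8089 and 7923 units with the shRNA. The lowest shRNA array thus lay above the highest control array, and the 3 shRNA arrays differed among themselves by less than the controls did. This was 5531 ± 274 against 8008 ± 83.3 units (SD, n = 3), or 0.51 ± 0.038 (SE) as a log2 change (limma adjusted p = 0.000624.)

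The 2 other Vim probe sets moved further. Probe set 1450641_at read 4181, 4468 and 4497 units in controls and 7365, 7595 and 7742 with the shRNA, a log2 change of 0.76 (SE 0.041, limma adjusted p = 0.000193), or 1.69-fold. On 1456292_a_at the control arrays gave 3404, 3159 and 3567 units and the shRNA arrays 5482, 5807 and 5357, a log2 change of 0.69 (SE 0.049, limma adjusted p = 0.000495), or 1.62-fold. The 95% interval of the brightest probe set, 0.42 to 0.60, did not reach that of 1450641_at, 0.66 to 0.85, while that of 1456292_a_at, 0.58 to 0.81, overlapped both. The probe sets were alike in direction. Taken within each array, the change of 1450641_at exceeded that of the brightest probe set by 0.25 and that of 1456292_a_at by 0.18, each with an exact two-sided permutation p of 0.1, the smallest that 3 against 3 arrays allow, and 0.4 after adjustment over the 12 pairs of probe sets compared.

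Every alternative setting run kept the Vim calls: 15 of 15 for the brightest probe set, 14 of 14 and 13 of 13 for the others, with log2 changes from 0.47 to 0.79 over the 3. Markers of other cell types were read on the brightest probe set of each gene, for which 9.44% of 18193 genes passed, 5.21% higher and 4.23% lower. Of 10 fibroblast genes measured, 0 passed the limma test at an adjusted p of 0.05, a count that a background share of this size does not set apart. Their summed level was 554 to 611 units in controls and 524 to 646 with the shRNA, and the receptor gene Pdgfrb, the proteoglycan gene Dcn and the protease gene Fap did not exceed background on any array. The collagen gene Col1a2 went from 205 ± 2.55 to 188 ± 2.65 units (SD, n = 3), and Col1a1 from 79.4 ± 11.1 to 68.3 ± 10.2. Neither passed (limma adjusted p = 0.322 and 0.551), and their other probe sets did not exceed background on any array. Lum, the gene of the matrix proteoglycan lumican, read 47.8, 42.5 and 51.5 units in controls and 69.2, 57.9 and 70.6 with the shRNA. Its shRNA arrays were all higher and above background, and the log2 change of 0.37 (95% interval 0.09 to 0.65) did not pass (limma adjusted p = 0.137). Leukocyte (8 genes) and endothelial (5 genes) markers also gave 0 calls. Of the 6 epithelial markers, 5 were lower, against 4.23% of all genes and, among the 4504 brightest probe sets, 22.8% called in either direction. Their summed level went from 26490 to 26900 units in controls to 22660 to 23630 with the shRNA. Rab25 (log2 -0.65) and Epcam (-0.35) passed in every alternative run, Esrp1 passed in 12 of 15 and was lost without shRNA replicate 2 (limma adjusted p = 0.067), and Cdh1 and Cldn7 were lost without any 1 array (0.0515 to 0.122 and 0.0748 to 0.151). The part of these genes in the Vim result was not tested.

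The Nes probe sets gave different readings. Its brightest probe set, 1449022_at, read 337, 330 and 343 units in the control arrays and 189, 202 and 171 with the shRNA. All 3 shRNA arrays lay well below the controls, at 336 ± 6.49 against 187 ± 15.5 units (SD, n = 3), or -0.81 ± 0.066 (SE) as a log2 change (limma adjusted p = 0.000846). The next probe set, 1418289_at, read 229, 235 and 217 units in controls and 235, 263 and 230 with the shRNA. Here the groups overlapped, and the log2 change was 0.07 (95% interval -0.08 to 0.22, limma adjusted p = 0.651). The third, 1453997_a_at, stayed at or under 30.1 units, within background on every array, and carries no information.

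Within each array the log2 value of the second Nes probe set minus that of the first was taken. It was -0.54 ± 0.092 in controls (SD, n = 3) and 0.35 ± 0.038 with the shRNA. Only the shift between groups can be read, not the sign in either group. The 2 changes thus differed by 0.88, with an exact two-sided permutation p of 0.1 (0.4 adjusted over the 12 pairs), and by 0.75 to 0.94 over 10 alternatives. The gap between the Nes probe sets was the largest among the 12 pairs. Averaged over all 3 probe sets, Nes changed by -0.39 and did not pass the test (limma adjusted p = 0.0513). That average includes 1453997_a_at, which lay within background on every array. In the 15 other alternatives the brightest Nes probe set passed. Signal ratios between the 3' and 5' probe sets of actin mRNA, a check of RNA integrity, ran from 1.33 to 1.37 in controls and 1.34 to 1.38 with the shRNA, and those of Gapdh from 0.837 to 0.853 and 0.826 to 0.854. Which part of the Nes transcript each probe set reads is not given in the tables used here.

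**Figure D2:**
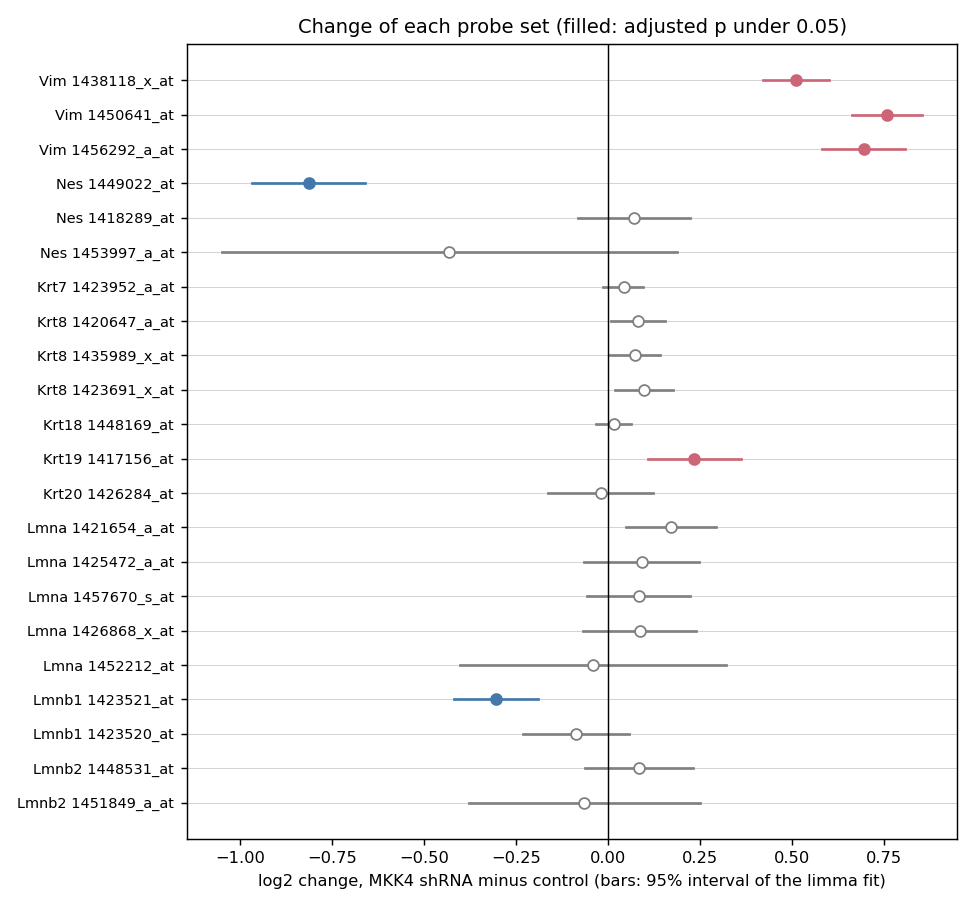
Log2 change (MKK4 shRNA minus control) of each of the 22 probe sets, with the 95% interval of the limma fit for that probe set alone; filled points passed an adjusted p of 0.05. The 3 Vim points lie at 0.51 to 0.76, the keratin points between -0.02 and 0.23, and the Nes points at -0.81, 0.07 and -0.43.

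The member keratins changed little, and the type II genes among them did not pass the test. Krt8, the main type II keratin of simple epithelia, read 8351, 8577 and 8693 units in controls and 9299, 9212 and 9161 with the shRNA on its brightest probe set, 1420647_a_at. The groups did not overlap on any of its 3 probe sets, and the log2 changes were close to each other, at 0.08, 0.07 and 0.10. None passed the limma test (adjusted p = 0.206, 0.239 and 0.170). The changes of the Krt8 probe sets differed from that of the brightest by -0.01 and 0.02, the closest match of any member with several probe sets. Probe set 1423691_x_at passed in 1 of 13 alternatives, when the dimmer probe sets were left out (adjusted p = 0.043).

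Krt7, a type II keratin of lung and duct epithelium, read 8569, 8755 and 8736 units in controls and 9036, 9139 and 9198 with the shRNA. The arrays were separated in the direction of a small rise, but the log2 change was 0.04 (95% interval -0.01 to 0.10, limma adjusted p = 0.416). Krt18, the type I partner of Krt8, read 14090, 13951 and 13878 units in controls and 14269, 14202 and 14496 with the shRNA. As deposited the shRNA arrays were all higher, and after normalization between arrays the groups overlapped, with a log2 change of 0.01 (95% interval -0.03 to 0.06, limma adjusted p = 0.79). Its signal stood above 99.9% of probe sets, near the top of the scale, where the highest value on any array was 16829 units.

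Krt19, the small type I keratin of simple and duct epithelium, was the member keratin that passed. The control arrays gave 3615, 3963 and 3995 units and the shRNA arrays 4313, 4866 and 4680. All shRNA arrays were higher, at 3858 ± 211 against 4620 ± 281 units (SD, n = 3), or 0.23 ± 0.054 (SE) as a log2 change (limma adjusted p = 0.0491), just under the threshold. The call was lost when any 1 of the arrays was left out: the limma adjusted p became 0.101, 0.107 and 0.0911 on dropping control replicates 1, 2 and 3, and 0.0686, 0.174 and 0.168 on dropping shRNA replicates 1, 2 and 3. It passed in 6 of 16 alternatives, and the log2 change stayed between 0.18 and 0.27.

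Krt20, the type I keratin of gut and urothelial surface cells, read 193, 202 and 198 units in controls and 198, 193 and 198 with the shRNA. The groups overlapped fully, and the log2 change was -0.02 (95% interval -0.16 to 0.12, limma adjusted p = 0.911), with a sign that turned to 0.003 without shRNA replicate 2.

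Vim was next set against the keratins on the same arrays. The log2 value of the brightest Vim probe set minus the mean of the brightest Krt8, Krt18 and Krt19 probe sets was -0.40, -0.58 and -0.45 on the control arrays and -0.06, -0.08 and -0.10 on the shRNA arrays. The 2 sets of values were apart by more than their whole spread, and the difference in change was 0.40 (exact two-sided permutation p = 0.1, the smallest that the design allows). Against each keratin singly the difference was 0.50 for Krt18, 0.47 for Krt7, 0.43 for Krt8 and 0.28 for Krt19, and against Krt20 it was 0.53. Krt18 lies near the top of the scale, where a rise can be read too small, which was not tested and bears on its own difference and on that from the mean. With the probe sets of each gene averaged, the difference from the mean of the 3 keratins was 0.54.

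**Figure D3:**
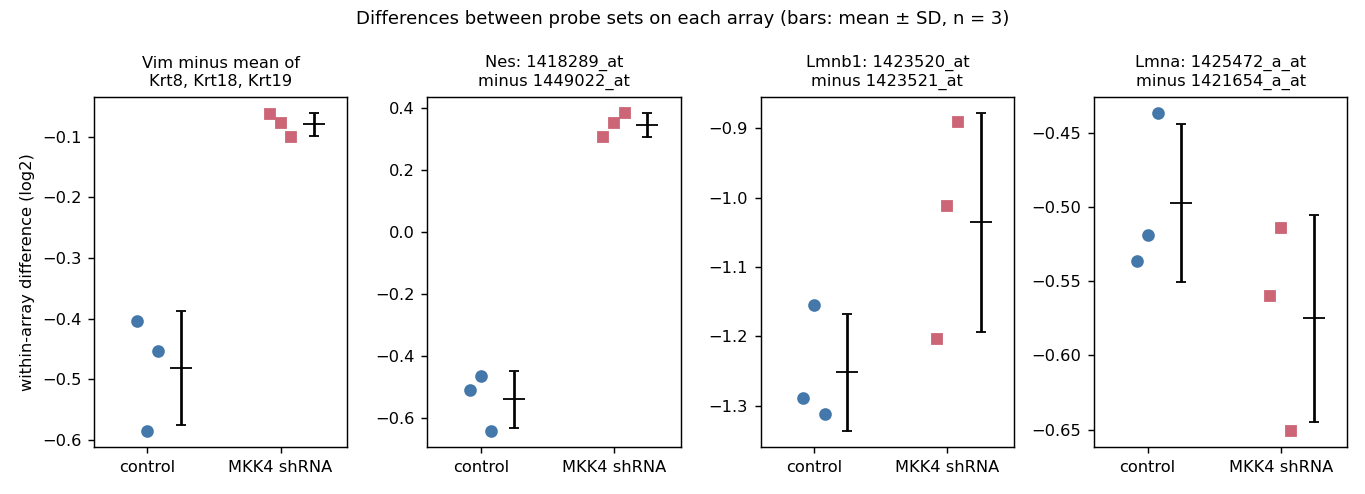
Differences in log2 value between probe sets of the same array, for Vim against 3 keratins and for pairs of probe sets of Nes, Lmnb1 and Lmna, with a separate vertical scale in each panel; circles are control arrays, squares MKK4 shRNA arrays, and bars mean ± SD (n = 3). The groups are apart for Vim and for Nes, where the mean goes from -0.54 to 0.35, and overlap for Lmnb1 and Lmna.

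Lamin B1 transcript was lower on the brighter of its probe sets. Lmnb1 encodes a B-type lamin that stays anchored to the membrane by its lipid tail. Probe set 1423521_at read 1867, 1696 and 1875 units in controls and 1465, 1475 and 1475 with the shRNA, so the shRNA arrays were nearly equal and all below the controls. The means were 1812 ± 101 and 1471 ± 5.52 units (SD, n = 3), or -0.31 ± 0.049 (SE) as a log2 change (limma adjusted p = 0.0124). The dimmer probe set, 1423520_at, read 752, 750 and 738 units in controls and 628, 732 and 785 with the shRNA, where shRNA replicate 3 lay above every control. Its log2 change was -0.09 (95% interval -0.23 to 0.06, limma adjusted p = 0.536).

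The Lmnb1 call held in 12 of 16 alternatives. It was lost without control replicate 1 (limma adjusted p = 0.0565), shRNA replicate 2 (0.0718) or shRNA replicate 3 (0.0669) and with a constant prior variance (0.0833), and the log2 change was -0.20 with the 2 probe sets averaged, which passed (0.0193). Without shRNA replicate 3 the dimmer probe set gave -0.15, and without shRNA replicate 1 it gave -0.03. The 2 probe sets differed in change by 0.22 (exact two-sided permutation p = 0.2, 0.48 adjusted over the 12 pairs). Among 6 proliferation genes, all bright, 3 were lower on the same arrays, against 4.23% of all genes. Among the 4504 brightest probe sets 22.8% were called in either direction. Bub1, Mki67 and Mcm2 fell by 0.45, 0.42 and 0.16 on the log2 scale. Ccna2, the cyclin A2 gene, did not pass on its brightest probe set (-0.03) and fell by 0.25 on its other one (limma adjusted p = 0.00548). The summed level of the 3 with Top2a, Ccna2 and Pcna was 18230 to 18300 units in controls and 15410 to 16950 with the shRNA. Within this sum Pcna went from 7313 ± 224 to 6560 ± 421 units (SD, n = 3), with groups that did not overlap. Its log2 change of -0.19 did not pass (limma adjusted p = 0.0501). The Bub1 call was lost without control replicate 2 or shRNA replicate 2 (limma adjusted p = 0.053 and 0.0555), Mki67 was lost without control replicates 1 or 2 or shRNA replicates 2 or 3 (0.0517 to 0.0861), and Mcm2 without every array except shRNA replicate 1 (0.089 to 0.124). The part of these genes in the Lmnb1 result was not tested.

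The A-type lamin gene did not pass on any of its 5 probe sets. Lmna, which gives lamins A and C by alternative splicing, read 1475, 1594 and 1619 units in controls and 1742, 1742 and 1825 with the shRNA on its brightest probe set, 1421654_a_at. The groups did not overlap there, and the log2 change was 0.17 (95% interval 0.05 to 0.29, limma adjusted p = 0.118), with a pass in 1 of 15 alternatives, without the dimmer probe sets (0.0312). The 3 further probe sets above background gave 0.09, 0.08 and 0.09 on the log2 scale with overlapping groups, and the fifth, 1452212_at, stayed at or under 9.1 units on every array, where the sign of its change (-0.04) has no meaning. The Lmna changes were thus of like sign wherever the signal was measurable, and the differences from the brightest probe set (-0.08 to -0.09) had exact two-sided permutation p-values of 0.2 to 0.3 (0.48 to 0.514 adjusted).

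Lmnb2, the other B-type lamin gene, read 187, 205 and 194 units in controls and 206, 218 and 204 with the shRNA on 1448531_at. The log2 change was 0.08 (95% interval -0.06 to 0.23, limma adjusted p = 0.565). Its second probe set, between 41.1 and 57.2 units, lay barely above background and gave -0.06 (0.864). On the same arrays Lmnb1 changed by 0.48 less than Lmna on the log2 scale, brightest probe sets compared (-0.24, -0.24 and -0.32 with the shRNA against 0.33, 0.09 and 0.21 in controls, exact two-sided permutation p = 0.1).

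Other genes of the family and their partners were read in the same way, on the brightest probe set of each gene, where the median log2 change over all genes was -0.01. Over all genes 9.44% passed, 5.21% higher and 4.23% lower. Of 10 other cytoplasmic filament genes (among them Des, Gfap, Prph and the neurofilament genes) 0 passed the limma test at an adjusted p of 0.05; Nefm and Bfsp1 did not exceed background on any array. Of 14 other keratins 1 rose: Krt80, a type II keratin, read 1010 ± 46.1 units in controls and 1280 ± 58.2 with the shRNA (SD, n = 3; log2 0.32, limma adjusted p = 0.00566), and passed in 14 of 15 alternatives. The basal keratin genes Krt5 (-0.18, adjusted p = 0.313) and Krt14 (-0.25, 0.196) did not pass, and Krt1, Krt15, Krt16 and Krt23 did not exceed background on any array.

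Genes that tie filaments to junctions and to each other gave 4 falls among 13 on their brightest probe sets, with a median log2 change of -0.14. Over all genes 4.23% were lower, and among the 4504 brightest probe sets 22.8% were called in either direction. Ppl, the gene of periplakin, which links keratin to the cornified envelope and the membrane, read 468 ± 15.3 units in controls and 373 ± 21.0 with the shRNA (SD, n = 3; log2 -0.33, limma adjusted p = 0.0122). Eppk1, which encodes the keratin-binding protein epiplakin, fell by 0.24, and the plakophilin genes of the desmosomal plaque, Pkp2 and Pkp1, fell by 0.20 and 0.15. The plakins Plec (-0.03), Dsp (0.06) and Dst (0.18) did not pass there (adjusted p = 0.769, 0.42 and 0.0927). A dimmer Dst probe set rose, from 310 ± 23.5 to 406 ± 27.8 units (SD, n = 3; log2 0.36, limma adjusted p = 0.020), with groups that did not overlap. Ppl passed in 10 of 14 alternatives and was lost without control replicate 2 (0.0553) or shRNA replicate 3 (0.0584), Pkp2 in 7 of 14 and was lost without control replicate 2 (0.0523), shRNA replicate 1 (0.0519) or shRNA replicate 2 (0.0713), Pkp1 in 6 of 15 and was lost without every array except control replicate 3 (0.0783 to 0.104), and Eppk1 in 4 of 15 and was lost without any 1 array (0.0817 to 0.159).

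Of 5 genes of lamin processing 1 passed, against 9.44% of all genes and 22.8% of the 4504 brightest probe sets. Fnta, the alpha subunit gene of the farnesyltransferase that lipidates lamins, rose by 0.14 (limma adjusted p = 0.0313), while Zmpste24, the protease that matures prelamin A, gave 0.03 (0.851). Of 15 nuclear envelope partners 2 rose, against 5.21% of all genes. They were Syne1, the gene of the linker nesprin-1, from 386 ± 12.8 to 476 ± 38.2 units (SD, n = 3; log2 0.27, limma adjusted p = 0.0291), and Banf1, whose protein bridges DNA and the envelope, by 0.16 (0.0341). The lamin B receptor gene Lbr (-0.02), the emerin gene Emd (-0.04) and Tmpo (0.04) did not pass (adjusted p = 0.809, 0.726 and 0.49). On 2 dimmer Tmpo probe sets the shRNA arrays were all lower, at -0.17 and -0.15, and these did not pass either (limma adjusted p = 0.055 and 0.0829). Leaving out an array ended the calls of Fnta and Syne1 for every array except shRNA replicate 1 (0.0639 to 0.124 and 0.0688 to 0.108), and that of Banf1 for every array except control replicate 2 (0.0661 to 0.139).

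**Figure D4:**
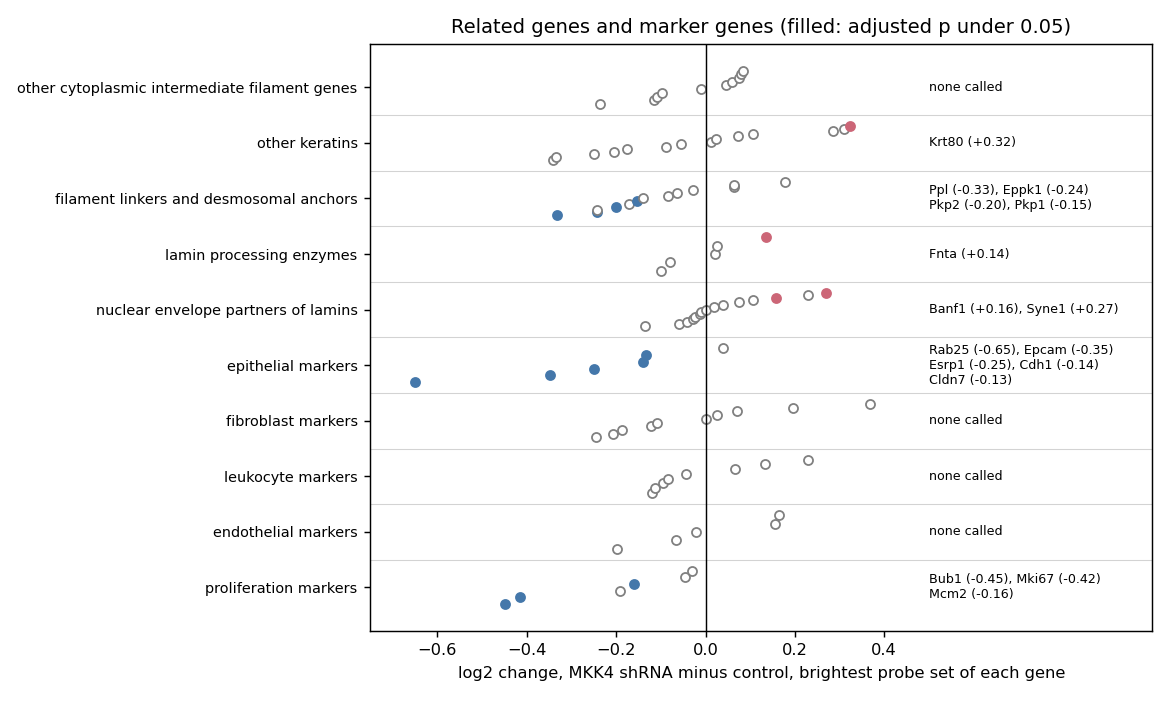
Log2 change (MKK4 shRNA minus control) on the brightest probe set of each related gene and marker gene, in 10 lists, with filled points for an adjusted p under 0.05 and those genes named at the right with their change. Filament linkers show 4 filled points, all below 0, and the fibroblast, leukocyte and endothelial lists none.

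Over the 6 arrays, the genes whose pattern was most like that of Vim among 9096 brighter genes were Rpl14, Sparc, Tmem131 and Trio, with Pearson r of 0.997, 0.997, 0.997 and 0.996 and log2 changes of 1.54, 0.19, 0.16 and 0.16. For the brightest Nes probe set they were Ppdpf, Ptprj, Erbb3 and Sufu, with r from 0.996 to 0.9997 and log2 changes of -0.37, -0.52, -0.64 and -0.23. These values describe 6 points in 2 groups, so any gene with a clean difference between the groups comes close to them: 19 genes exceeded r = 0.99 with Vim and 38 with Nes.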

How the data were processed

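Per the labels' protocols, RNA of 6 cultures was turned into biotin-labelled cRNA for Affymetrix arrays, read in 1 colour. The deposited values are linear intensities, 1 per probe set; how probes were summarised, background-corrected and scaled is not given by any label or header used here. From them log2(intensity + 16) was taken, quantile-normalized (limma 3.58.1, R 4.3.3), and tested across 45037 probe sets, 64 control probe sets left out, with lmFit and eBayes (trend), Benjamini-Hochberg at 0.05. Log2 changes understate dim probe sets; means and SDs are of deposited units. Differences within arrays were tested by exact permutation. Genes named were the members, Map2k4, up to 4 called genes of each family list by size, the 4 genes most like Vim and Nes, and, chosen after values were seen, further list genes given as examples. Members and lists were chosen with earlier results of these data known. The test was also run on simulated data with independent noise in each value, which cannot show how far the calls on these arrays hold. Alternatives covered scaling, pseudocount, dim or multi-transcript probe sets, gene summary, prior trend, replicate block and each array left out. The number of arrays limits precision.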

Additional observations from a re-analysis of the deposited data

How the results depend on the processing

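Of 313 values of member probe sets under the alternatives, 291 kept their direction and side of the threshold, 15 lost the call, 2 gained it and 5 changed sign. The sign changes were of uncalled values: the dimmest Lmna probe set went to 0.03 with a pseudocount of 1 and ranged from -0.158 to 0.127 with an array left out, the dimmer Lmnb2 probe set from -0.146 to 0.05 and Krt20 from -0.036 to 0.003. The count of changed probe sets, 2868 of 45037 tested, was 1842 as deposited, 941 without a prior trend, 1139 with the replicate block, and 1183 to 1867 with an array left out. Other runs tested fewer values, so their counts are not on the same base. They gave 1539 of 18193 with probe sets averaged per gene and 2139 of 18193 with the brightest probe set of each gene fitted alone. With probe sets marked as matching several transcripts removed the count was 1701 of 36082. Without the dimmer probe sets it rose to 4300 of 22519 tested. Members called higher, 4, were 2 over genes by brightest or averaged probe set (10 genes), 1 without multi-transcript probe sets (10 left) and 6 without the dimmer probe sets (19 left), where a Krt8 and a Lmna probe set were added; those called lower, 2, were 1 averaged or without a prior trend and 1 to 2 with an array left out. Vim minus keratins, 0.40, was 0.544 averaged and 0.349 to 0.437 with an array left out; without multi-transcript probe sets it could not be computed, since no Krt8 probe set was left. Same-numbered arrays were not treated as paired in the main fit. Their deviations correlated at -0.029, -0.007 and -0.098, and those of differently numbered arrays at -0.083 to 0.116. With 3 arrays per group such values cannot tell whether same-numbered arrays were prepared together. The replicate block changed no member's call. It ended those of Ppl, Pkp1, Pkp2, Eppk1, Fnta, Banf1, Syne1, Cdh1, Cldn7, Esrp1, Mki67, Bub1 and Mcm2 (limma adjusted p = 0.0502 to 0.154). Counts of member calls, named list genes and differences between probe sets under alternatives were added after seeing the data; the causes of these shifts were not tested. Intensities near 39.47 units say little.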
